A study of Mus musculus with 72 samples.

Results

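The spleen libraries of 3 mouse knockout lines, Dstn, Ninj1 and Rab32, are described here, chosen by the tissue code in the library titles. They are 9 of the 72 libraries of a bisulfite amplicon study of 6 lines, and each line contributed 3: the promoter CpG island in knockout spleen, the island in the wild-type spleen set against it, and the LacZ reporter read from that knockout DNA. The knockouts were labelled Dstn -/-, Ninj1 -/- (also spelled Ninj) and Rab32 -/-, and carried a tm1a allele, in which the native promoter drives LacZ and a neo selection cassette is present. All mice, wild types included, had a C57BL/6N background and were 7 weeks old. The labels do not say whether a library came from 1 animal or from a pool, or whether tissues and genotypes shared animals or litters. Each combination of line and genotype had 1 library per amplicon, so a spleen value of 1 line has no replicate, and the tissues of a line or the 3 lines supply the spread. The amplicons hold no marker gene of a cell type, so the spleen label cannot be checked against the data.

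CpG islands are stretches rich in CpG that lie over many mammalian promoters and normally carry little cytosine methylation, while dense methylation of a promoter goes with a silent gene. Foreign CpG-rich sequence such as the bacterial LacZ gene is known to become methylated in many mouse transgenes. Bisulfite converts unmethylated cytosine so that it is read as thymine, and the share of reads that still show cytosine at a CpG is the methylation level of that site. In bulk spleen, which holds B cells, T cells, macrophages, red-pulp erythroid cells and stroma, a fully methylated minority of cells and a partial level in every cell give the same share. Destrin, encoded by Dstn, severs and depolymerises actin filaments. Ninjurin 1, encoded by Ninj1, is an adhesion protein that also ruptures the plasma membrane of dying cells, and Rab32 is a small GTPase of melanosome and other lysosome-related organelle traffic.

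The sites were placed by matching the spacing of the deposited mm9 positions to the CpGs of RefSeq promoter windows of GRCm38.p6, which run from 250 bases before to 50 bases after the annotated start. All 31 CpGs of the Dstn window matched at 1 shift. The amplicons overlapped only 7 of the 37 CpGs of the Ninj1 window and 5 of the 10 of the Rab32 window. All of those matched at 1 shift too, while the next best shift matched at most 23.5%. Distances from the start outside the windows assume the same spacing. The sequence before the Dstn start is shown because it carries 5 of the 8 Dstn sites that were methylated at 5% or more in wild-type spleen, and the short Ninj1 sequence because it carries the largest fall in knockout spleen. Both are from the plus strand of RefSeq GRCm38.p6, Dstn at chr2:143915081-143915330 and Ninj1 at chr13:49187549-49187578, and capitals mark those CpGs.
Dstn: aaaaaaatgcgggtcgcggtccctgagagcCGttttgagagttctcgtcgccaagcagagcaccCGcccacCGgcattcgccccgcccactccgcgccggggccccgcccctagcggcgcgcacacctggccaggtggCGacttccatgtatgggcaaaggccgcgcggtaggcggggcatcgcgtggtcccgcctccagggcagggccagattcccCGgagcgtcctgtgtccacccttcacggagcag
Ninj1: cgggcggccgcaccatggagtCGggcactg
The Dstn stretch holds 28 CpGs, and relative to the start its 5 marked sites lie at -220, -186, -179, -112 and -33. The marked Ninj1 CpG lies 41 bases after the start, a few bases beyond the atg of the printed stretch.

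The 6 spleen island libraries held 526204 to 2931469 methylation calls each, with a median of 7190 to 23326 reads per site, and the 3 spleen LacZ libraries held 1114933 to 2153480 calls, with a median of 5820.5 to 14212. Sites with at least 10 reads in both libraries of a pair were used. The intervals given are 95% Wilson intervals. They describe the error of counting alone, since amplified reads that carry no molecular identifier can be copies of the same molecule.

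The promoter islands had low mean methylation in both knockout and wild-type spleen, and most of their sites were near 0. The level of an island is the unweighted mean over its sites, with a 95% counting margin that holds if sites err independently. Over 79 Dstn sites (mm9 chromosome 2, 143740490 to 143741399) the mean was 4.0% ± 0.0191 in knockout spleen and 3.79% ± 0.0427 in wild-type spleen, a difference of 0.212 points. Over 56 Ninj1 sites (chromosome 13, 49282886 to 49283487) it was 9.39% ± 0.0404 in knockout and 9.06% ± 0.0328 in wild-type spleen, a difference of 0.324 points. Over 40 Rab32 sites (chromosome 10, 10277589 to 10277983) it was 2.56% ± 0.0411 in knockout and 2.80% ± 0.0365 in wild-type spleen, a difference of -0.244 points. The direction was thus not shared by the lines. The mean difference was 0.0975 ± 0.301 points (SD, n = 3 lines), positive in 2 of 3 lines, and an exact two-sided sign-flip permutation test over lines gave p = 0.75, where 3 lines cannot go below 0.25. Without Ninj1 the mean was -0.0157 points.

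These differences were of the size seen in other organs. In the other 5 tissues of Dstn, the knockout minus wild-type difference ran from 0.0775 to 0.601 points with a median of 0.209, and spleen ranked the third of 6. In the other 5 tissues of Ninj1 it ran from -0.0310 to 0.934 points, and spleen ranked the fourth of 6. Those Ninj1 tissues were compared at 55 to 64 sites with counting margins of up to 0.876 points, against 0.052 points in spleen. Rab32 was measured in 1 other tissue, liver, where it was -0.258 points. Spleen minus the mean of the other tissues came to -0.0351 points in Dstn, -0.0799 in Ninj1 and 0.0149 in Rab32 (exact sign-flip permutation p = 0.5). The Ninj1 value turned to 0.244 points with at least 100 reads and to 0.217 points at sites covered in every island library, so its direction depends on the sites used. Averages over an island hide opposite movements of single sites, which follow.

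**Figure D1:**
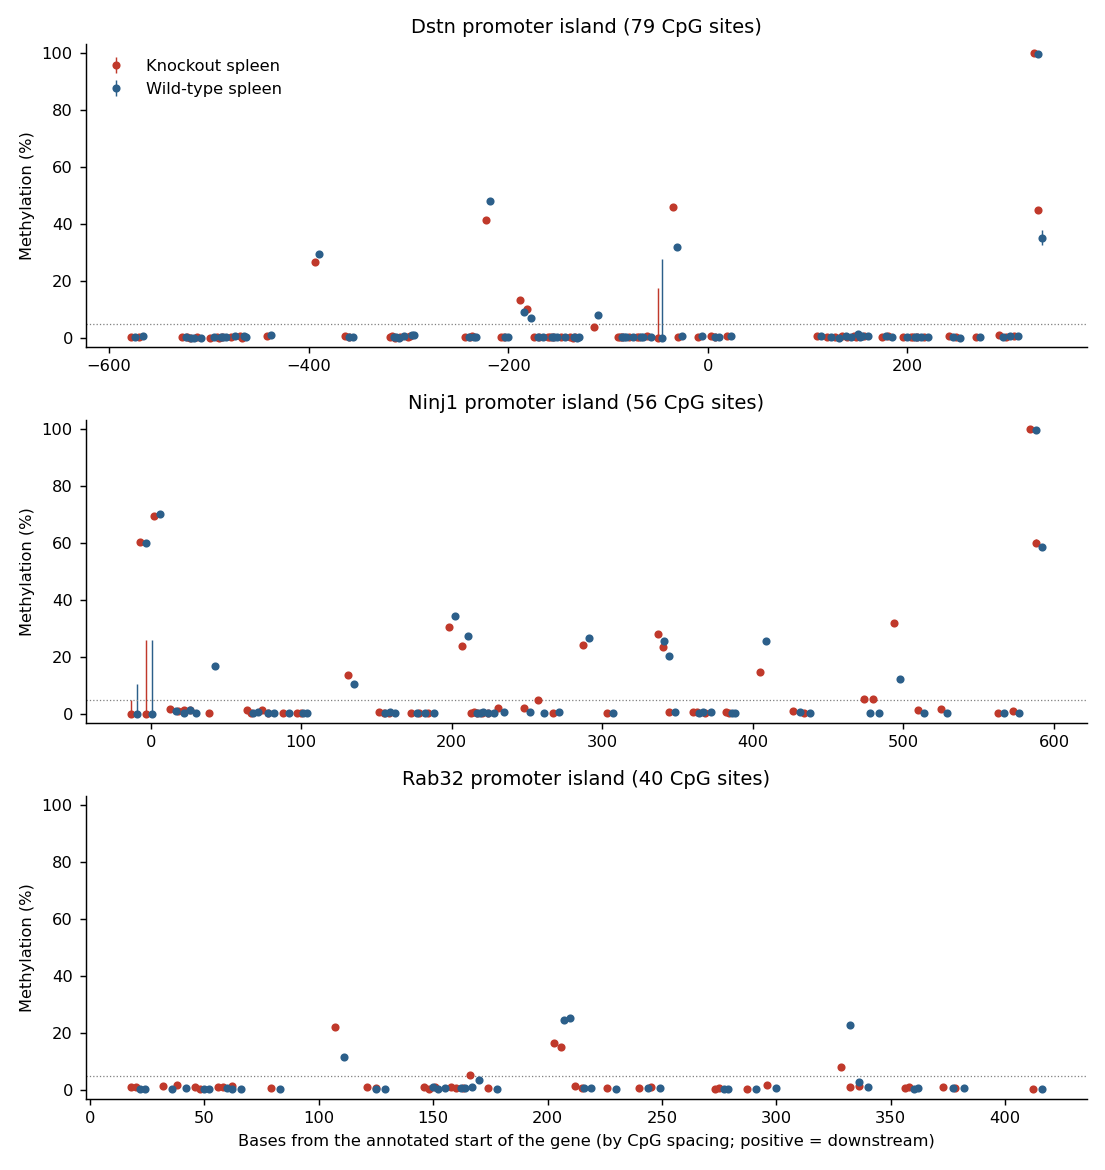
Methylation at each CpG site of the 3 promoter islands in knockout spleen (red) and wild-type spleen (blue) against bases from the annotated start of the gene, with 95% Wilson intervals and a dotted line at 5%. Most sites sit on the floor in both genotypes, and the 8 Dstn, 13 Ninj1 and 4 Rab32 sites at 5% or more in wild type carry most of the level.

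A small number of sites carried most of each island's level. Sites at 5% or more in wild-type spleen are called elevated here and the others low. The 8 elevated sites of Dstn made up 10.1% of its sites and 90.5% of its summed level in knockout spleen, against 89.6% in wild-type spleen. The 13 elevated sites of Ninj1 made up 23.2% of its sites and 91.3% of the summed level in knockout, against 96.1% in wild type. The 4 elevated sites of Rab32 made up 10% of its sites and 60.8% of the level in knockout, against 75.2% in wild type. Taken over the 3 lines, elevated sites lay between neighbours of more unlike coverage. The step at a site is the absolute log2 ratio of the coverage of the next site to that of the site before. Its median at elevated sites was 0.478 in knockout spleen and 0.412 in wild-type spleen. At low sites it was 0.0083 in knockout and 0.00972 in wild type. Rab32 showed this less, with a median step of 0.391 in knockout and 0.144 in wild-type spleen at its 4 elevated sites. Among sites with a neighbour on either side, a step of at least 0.25 was found at 16 of 23 elevated sites in knockout and 15 of 23 in wild-type spleen. At low sites it was found at 46 of 146 in knockout and 49 of 146 in wild-type spleen. The part of these coverage steps in the levels was not tested.

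In Dstn, 3 of the 79 sites differed by at least 5 points between knockout and wild-type spleen, or 3.8%, against 16 of 390 site values (4.1%) in its other tissues. The largest rise in value lay at -33 from the start, mm9 position 143741033, with 45.7% (45.3 to 46.2) in knockout spleen and 31.9% (31.4 to 32.4) in wild-type spleen. There the knockout was higher in 4 of the other 5 tissues, by up to 23.2 points in lung, and in brain knockout minus wild type was -2.01 points. The next was the last site of the amplicon, 143741399, with 44.97% in knockout and 35.2% in wild-type spleen, and knockout was higher there in all of the other 5 tissues. The largest fall in value lay at -220 from the start, position 143740846, with 41.4% (41.1 to 41.8) in knockout and 48.2% (47.5 to 48.8) in wild-type spleen, and knockout was lower there in all of the other 5 tissues too.

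The other elevated Dstn sites moved less and in both directions. The neighbouring pair at 143740880 and 143740887 had 13.3% and 10.2% in knockout spleen, against 9.03% and 7.03% in wild-type spleen. Site 143740954 had 3.85% in knockout and 8.09% in wild-type spleen, and site 143740674 had 26.8% in knockout and 29.3% in wild-type spleen. Site 143741395 was methylated in nearly all reads of both genotypes, 99.7% in knockout and 99.4% in wild-type spleen, and at 99.17% or more in both genotypes of every other tissue. Over the 8 sites the mean was 35.8% in knockout and 33.5% in wild-type spleen, with 5 sites higher and 3 lower in knockout.

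No Dstn site passed the site test. edgeR's quasi-likelihood test on methylated and unmethylated counts, with the spread taken from the other 5 tissues, called 0 of 78 sites (0%) at an adjusted p under 0.05 between knockout and wild type in spleen, with 0 at an unadjusted p under 0.05, and limma on logit methylation called 0. For the departure of the spleen difference from the other tissues it also called 0 of 78 (0%), with 0 unadjusted, and limma called 0. With 1 spleen pair per line the test resolves large changes only, and these counts do not show that the genotypes were equal. The 71 low Dstn sites averaged 0.423% in knockout and 0.440% in wild-type spleen, and 39 were higher and 31 lower in knockout. No low Dstn site reached 2% in either genotype.

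In Ninj1, unlike Dstn, some sites passed the site test, which could not be run for Rab32. edgeR called 5 of 55 sites (9.09%) between knockout and wild type, 4 higher and 1 lower in knockout, with 11 sites at an unadjusted p under 0.05, and limma called 6. Of the 56 sites, 3 differed by at least 5 points (5.36%), against 30 of 275 site values (10.9%) in the other tissues.

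The site lower in knockout was 49282938, the CpG in capitals in the Ninj1 sequence. It had 0.348% (0.275 to 0.439, 20121 reads) in knockout spleen and 16.9% (16.4 to 17.4, 21417 reads) in wild-type spleen, a fall of 16.5 points (edgeR adjusted p = 3.75e-05). The same contrast stood in every other tissue. Knockout brain, kidney, liver, lung and muscle had 0.487%, 0.267%, 0.334%, 0.212% and 0.310%, and wild-type samples of the same tissues had 17.3%, 15.6%, 14.6%, 14.8% and 15.1%. Knockout and wild type did not overlap over the 6 tissues, and no departure of the spleen difference from the others was called (edgeR adjusted p = 0.986). Such separation was not particular to this site, since it also held at 49282925, 49283304 and 49283393. It was not counted over all sites of the island. The neighbouring CpG 49282925, 13 bases before 49282938, went the other way, with 1.45% (19909 reads) in knockout and 0.326% (21142 reads) in wild-type spleen (edgeR adjusted p = 0.00507).

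The other 3 called sites had about 5% in knockout spleen and under 1% in the knockouts of the other tissues. In those tissues knockout was above wild type at most of these comparisons too, by at most 0.585 points. Site 49283156, 259 bases after the start, had 5.06% (22342 reads) in knockout and 0.418% (18682 reads) in wild-type spleen (edgeR adjusted p = 0.00134). In the other tissues it had 0.156% to 0.582% in knockout and 0.183% to 0.441% in wild type. Site 49283373, 476 bases after the start, had 5.28% (23631 reads) in knockout and 0.287% (70374 reads) in wild-type spleen (edgeR adjusted p = 0.00212), against 0.270% to 0.844% in the knockouts and 0.176% to 0.543% in the wild types of the other tissues. Site 49283379 had 5.17% (23618 reads) in knockout and 0.481% (70316 reads) in wild-type spleen (edgeR adjusted p = 0.00367), against 0.326% to 0.918% in the knockouts and 0.285% to 0.424% in the wild types of the other tissues. At each of the 3 sites the spleen knockout lay above the 11 other island libraries of the line. Sites 49283373 and 49283379 lie 6 bases apart at nearly the same coverage, so they share reads and are not separate observations.

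**Figure D2:**
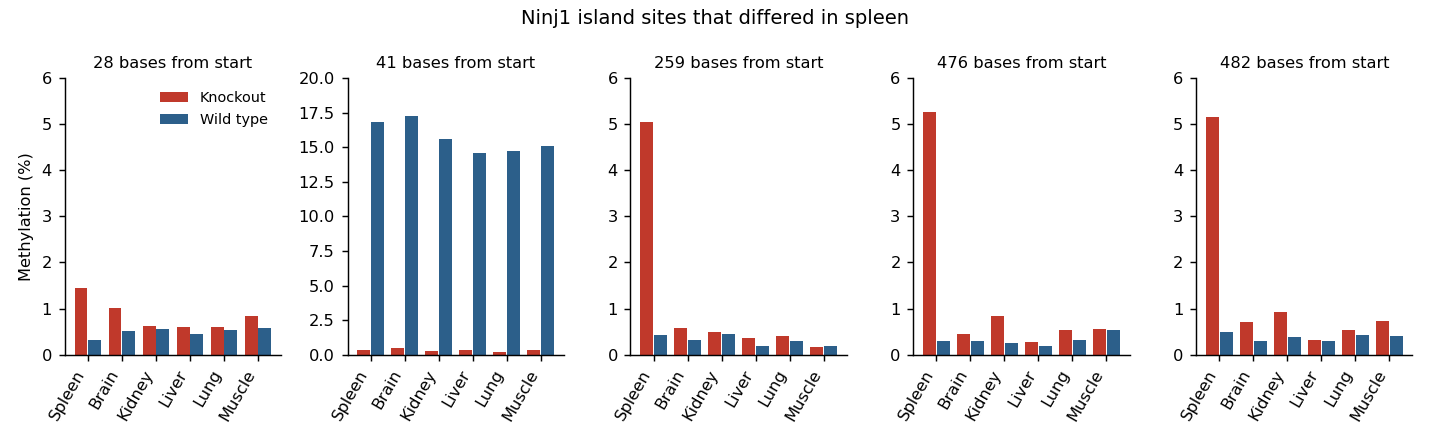
Methylation in knockout (red) and wild type (blue) of the 6 tissues, spleen first, at the 5 Ninj1 sites called in spleen, titled by bases after the annotated start; each bar is 1 library. At 259, 476 and 482 bases the spleen knockout stands at about 5% and the other bars stay below 1%, while at 41 bases the wild type is higher in every tissue; the vertical scale of that panel differs.

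The test of the spleen difference against the difference in the other tissues called 4 of 55 Ninj1 sites (7.27%), all higher, with 8 at an unadjusted p under 0.05, and limma called 3. Knockout minus wild type in spleen exceeded the mean over the other 5 tissues by 4.53 points at 49283156 (edgeR adjusted p = 0.0112), by 4.78 points at 49283373 (0.018) and by 4.398 points at 49283379 (0.0405). At 49282925 it exceeded it by 0.917 points (edgeR adjusted p = 0.0452), and there limma's adjusted p was 0.0741. Leaving out 1 other tissue at a time lowered the count to 2 without lung or muscle and to 3 without brain, kidney or liver. Sites 49283156 and 49283373 were called each time, with adjusted p up to 0.0346 and 0.0494, while 49283379 was lost without brain, lung or muscle and 49282925 without kidney, liver, lung or muscle.

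The next sites around 49283156, and the one after 49283379, were not called. At 49283147, 9 bases before 49283156, the level was 2.26% in knockout and 0.627% in wild-type spleen, while at 49283166, 10 bases after it, it was 0.564% in knockout and 0.572% in wild-type spleen. At 49283393, 14 bases after 49283379, the level was 31.9% (31.3 to 32.5) in knockout and 12.2% (12.0 to 12.5) in wild-type spleen, the largest difference of any spleen island site at 19.7 points. It was not called (edgeR adjusted p = 0.0618), and knockout was higher there in all of the other 5 tissues, by 4.21 to 19.5 points.

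Among the remaining elevated Ninj1 sites, 49283304 had 14.7% in knockout and 25.5% in wild-type spleen, and knockout was lower there in all of the other 5 tissues. The pair 49283097 and 49283106 had 30.4% and 23.7% in knockout spleen, against 34.4% and 27.4% in wild-type spleen. Both sites were higher in knockout in all of the other 5 tissues, so spleen was alone in that direction, although neither departure was called. At 49283030 the level was 13.7% in knockout and 10.7% in wild-type spleen, whereas knockout was lower in all of the other 5 tissues, again without a call. Sites at the 2 ends of the amplicon scarcely differed: 49282892 and 49282901 had 60.2% and 69.2% in knockout and 60.1% and 70.0% in wild-type spleen, and 49283483 and 49283487 had 99.7% and 60.04% in knockout and 99.6% and 58.5% in wild-type spleen. Sites 49283186, 49283236 and 49283239 had 24.2%, 28.2% and 23.4% in knockout spleen, against 26.5%, 25.5% and 20.4% in wild-type spleen. Over the 13 elevated sites the mean was 36.9% in knockout and 37.5% in wild-type spleen.

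Most low sites of Ninj1 and Rab32 had a higher value in knockout spleen than in wild-type spleen. The 43 low Ninj1 sites averaged 1.06% in knockout and 0.461% in wild-type spleen, with 33 higher and 8 lower, and 18 higher and 1 lower with intervals that did not overlap. Without the 4 called sites the other 39 averaged 0.736% in knockout and 0.470% in wild-type spleen, and 29 were still higher. Of 42 of these sites, knockout was higher at 40 in brain, 32 in lung, 31 in liver, 26 in kidney and 15 in muscle. With intervals that did not overlap, 32 were higher in brain, 14 in lung, 13 in kidney, 9 in liver and 6 in muscle. Brain thus exceeded spleen on both counts. The difference over the 43 sites, 0.601 points, is to be set beside -0.0952 to 0.622 points in the other tissues, at 42 of these sites. The upper end, kidney, rests on a thin site with a difference of 11.1 points. At the 41 sites with at least 100 reads the difference was 0.631 points in spleen and 0.0244 to 0.438 points in the other tissues, a comparison added after seeing the data and not tested. The 41 sites include the 4 called higher in knockout spleen, which raise the spleen value. Over the 39 low sites without them the spleen difference was 0.267 points. The other tissues were not recomputed without them, so spleen is not shown to be the highest at low sites in general. The same 43 sites were low when the class was set on the mean of both genotypes.

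In Rab32, 4 of 40 sites (10%) differed by at least 5 points in spleen, against 3 of 40 (7.5%) in liver. The 3 falls in value were at 10277673, with 8.24% (7.89 to 8.60) in knockout and 23.0% (22.7 to 23.3) in wild-type spleen, at 10277795, with 15.3% in knockout and 25.1% in wild-type spleen, and at 10277798, with 16.5% in knockout and 24.8% in wild-type spleen. In liver these sites had 4.97%, 17.3% and 16.6% in knockout, against 19.9%, 21.4% and 22.0% in wild type, so each was lower in knockout in both organs. The rise in value was at 10277894, 109 bases after the start, with 22.3% (21.6 to 22.9) in knockout and 11.5% (11.1 to 11.9) in wild-type spleen, and with 19.8% in knockout and 14.4% in wild-type liver. Rab32 had 1 other tissue, which leaves no spread to test against, so these are values of 2 pairs of libraries.

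The 36 low Rab32 sites averaged 1.12% in knockout and 0.773% in wild-type spleen, with 32 higher and 4 lower. In liver the same sites averaged 0.638% in knockout and 0.418% in wild type. At 29 of the 36 sites knockout was higher in both organs, and 2 sites were lower in both. Spleen also stood above liver within a genotype, at 31 of 36 low sites in knockout and at 34 of 36 in wild type. The largest low-site rises in value were at 10277835, with 5.46% in knockout and 3.72% in wild-type spleen, and at 10277939, with 1.64% in knockout and 0.564% in wild-type spleen.

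**Figure D3:**
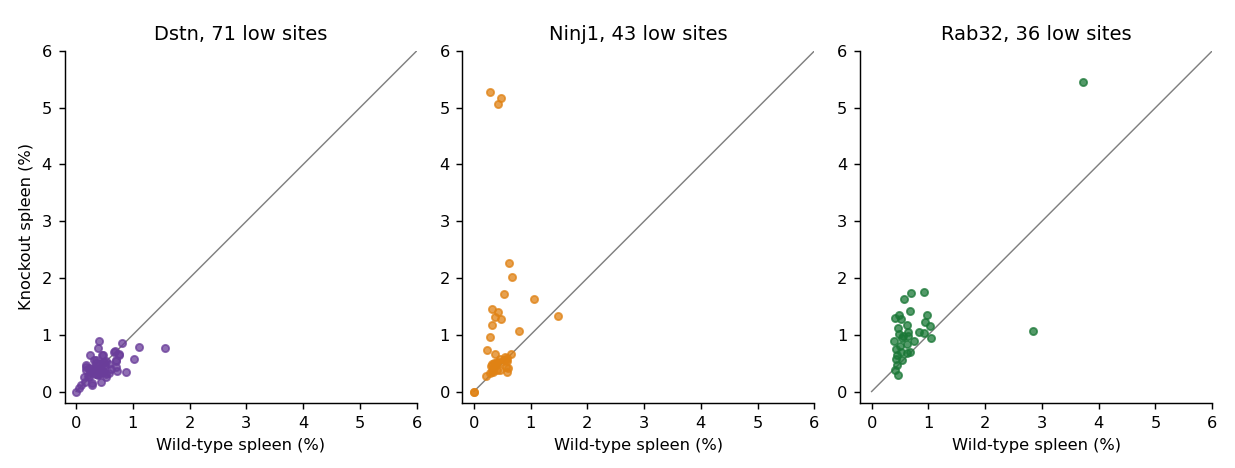
Methylation of the low sites in knockout spleen (vertical) against wild-type spleen (horizontal), 1 point per CpG site, with the line of equality. Dstn points scatter around the line with 39 of 71 above it, 33 of 43 Ninj1 points and 32 of 36 Rab32 points lie above it, and 3 Ninj1 sites stand at about 5% in knockout.

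The LacZ reporter carried far more methylation than the island in the same knockout DNA, and the lines differed widely. Over the 166 reporter sites covered in all 3 spleen libraries the mean was 70.0% ± 0.504 in Dstn, 41.6% ± 0.410 in Ninj1 and 26.3% ± 0.278 in Rab32 spleen (95% counting margin), while the knockout islands had 4.0%, 9.39% and 2.56%. The reporter has no wild-type counterpart. In Dstn 70 sites were at 80% or more and 13 under 20%, in Ninj1 1 site was at 80% or more and 11 under 20%, and in Rab32 1 site was at 80% or more and 77 under 20%. The order Dstn over Ninj1 over Rab32 held at 128 of the 166 sites. Dstn was above Ninj1 at 135 sites, Dstn above Rab32 at 156, and Ninj1 above Rab32 at 154. The line with the highest reporter level was not the line with the highest island level.

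The reporter was read in 7 stretches, which were separated by at least 100 bases without sites or by a change of over 1.5-fold in the relative coverage of Dstn and Ninj1. Dstn levels were nearly flat within the stretches at about 95%, varied more within the others, and jumped between stretches. At bases 150 to 424 Dstn had 94.6% ± 0.829, at 943 to 1232 95.3% ± 1.36 and at 1805 to 2068 96.4% ± 0.901 (SD over 22, 22 and 21 sites). At 462 to 722 it had 70.7% ± 4.93 and at 2198 to 2433 72.2% ± 4.01, and at 2629 to 2896 it had 20.1% ± 5.80 (SD over 21, 20 and 21 sites). These means leave out end sites of near-constant level, described further on, and sites under 1000 reads. Of the variation between 127 such sites, 98.3% lay between the 6 deep stretches in Dstn, against 74.8% in Rab32 and 44.1% in Ninj1.

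The remaining stretch, at bases 1423 to 1633, was thin, with 10 to 54 reads per site in Dstn, 19 to 72 in Ninj1 and 31 to 124 in Rab32. Its means were 57.7% in Dstn, 37.3% in Ninj1 and 25.7% in Rab32, and at this depth single sites of it carry wide intervals. The lowest values of all 3 lines, 0% at bases 156 and 1805, rested on 10 to 33 reads. A count of 0 there allows up to 9.09% and 20% in Dstn, 10.7% and 9.68% in Ninj1, and 11.1% and 30% in Rab32.

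Ninj1 and Rab32 were highest in the first deep stretch and lowest at 2198 to 2433. Between these Rab32 fell at each deep stretch, while Ninj1 did not fall steadily. Scatter between sites in these lines was wider than in Dstn in most deep stretches. At 2198 to 2433 the SD was 3.36 in Rab32 and 4.01 in Dstn, and at 2629 to 2896 it was 5.90 in Rab32 and 5.80 in Dstn. In the order of the 6 deep stretches Ninj1 had 55.6%, 40.1%, 45.6%, 46.5%, 26.0% and 35.1%, and Rab32 had 43.6%, 34.9%, 25.8%, 14.4%, 9.97% and 13.4%. At the last stretch, 2629 to 2896, Ninj1 stood above Dstn, the reverse of every earlier stretch. Neighbouring CpGs could differ widely in these lines: at bases 956 and 958 Ninj1 had 82.9% and 36.9% and Rab32 had 58.9% and 17.3%, while Dstn had 98.3% and 94.3%. High and low sites tended to be the same ones in Ninj1 and Rab32. After the stretch means were taken off, levels in Ninj1 and Rab32 correlated at r = 0.878 over 127 sites, against 0.506 for Dstn and Ninj1 and 0.473 for Dstn and Rab32. These are descriptions over sites that share sequence and primers and are not independent.

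The highest Dstn sites were 956, 2053 (97.8%) and 1174 (97.7%), and its lowest deep site was 2866 (11.05%). In Ninj1 the highest were 956, 424 (79.7%) and 282 (78.9%), and the lowest deep site was 2291 (13.9%). In Rab32 the highest were 1633 (81.2%, on 69 reads), 424 (78.0%) and 722 (77.8%), and the lowest deep site was 2866 (3.87%). Sites 424 and 722 are 2 of 14 sites whose level barely varied over the 24 LacZ libraries of the series (SD under 7 points). All 14 were among the 28 sites that are the first 2 or last 2 of a stretch. In spleen they had 34.8% to 88.7% in Dstn, 32.7% to 79.7% in Ninj1 and 32.0% to 78.0% in Rab32. The 3 lines differed at such a site by a median of 2.81 points and by up to 10.8 points. The spleen libraries are among the 24 by which these sites were chosen, so small differences between the lines were built in. Whether the position at the end of a stretch sets the levels of the 14 sites was not tested.

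**Figure D4:**
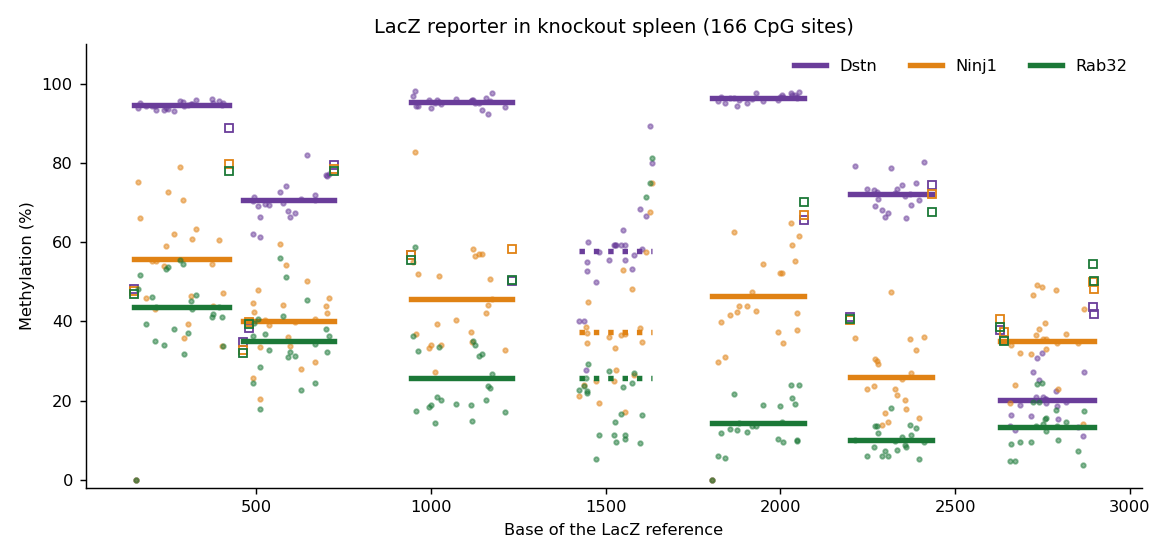
Methylation of each LacZ site in knockout spleen of the 3 lines against its base in the LacZ reference; horizontal bars are stretch means (dotted where the stretch is thin), dots are sites, and open squares are the 14 near-constant sites. Dstn bars step between about 95%, 71% and 20%, and Ninj1 and Rab32 lie lower with wider scatter in most stretches. The open squares, chosen for little variation over all LacZ libraries, lie at the ends of stretches and mostly close together in the 3 lines.

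In the spleen of every line the last part of the covered span was less methylated than the first. The mean over bases 150 to 1030 was 81.1% in Dstn, 47.4% in Ninj1 and 38.2% in Rab32, and over bases 1992 to 2896 it was 54.8%, 36.4% and 17.2% in the same lines. The start exceeded the end by 26.3, 11.1 and 21.0 points, a mean of 19.5 ± 7.76 (SD, n = 3 lines), positive in 3 of 3 lines. The exact two-sided sign-flip permutation p was 0.25, the smallest that 3 lines allow. The lowest Dstn stretch lies in the last part, so the difference in Dstn follows the stretches and is no even slope. In other tissues the start exceeded the end by 5.98 (lung) to 33.3 points (heart) in Dstn and by 2.92 points in Rab32 liver. In Ninj1 the other tissues ran from -9.82 points in liver to 14.9 in lung, with -7.95 in brain, so the direction was not shared by its tissues.

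Set against other organs, the spleen reporter was high in Dstn, intermediate in Ninj1 and higher than liver in Rab32. In Dstn it had 70.4% over 165 sites shared by the tissues, against 70.5% in brain, 66.9% in heart, 65.8% in kidney, 46.2% in liver and 33.6% in lung. In Ninj1 it had 42.0% over 164 sites, against 53.0% in kidney, 42.1% in liver, 42.1% in lung, 28.6% in brain and 25.3% in muscle. In Rab32 it had 25.9% over 170 sites, against 11.04% in liver, and spleen was higher at 164 sites and lower at 4. Spleen exceeded the mean of the other tissues by 13.8 points in Dstn, 3.79 in Ninj1 and 14.9 in Rab32, a mean of 10.8 ± 6.12 (SD, n = 3 lines), positive in 3 of 3 lines (exact sign-flip permutation p = 0.25, the smallest possible). edgeR called 0 of 165 Dstn sites (0%) and 0 of 164 Ninj1 sites (0%) between spleen and the other tissues, with 0 at an unadjusted p under 0.05 in both lines, and limma called 0 in both.

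Site by site, the Dstn spleen profile lay close to 3 tissues and far from the other two. The mean absolute difference per site was 4.68 points from heart, 5.03 from kidney and 5.04 from brain, against 25.2 from liver and 37.4 from lung. The last stretch was low in every Dstn tissue, with 20.1% in spleen and 15.1% to 19.0% in the other tissues, while the stretch at 943 to 1232 had 95.3% in spleen and ran from 21.0% in lung to 96.7% in heart. In Ninj1 no tissue was that close to spleen: the smallest mean absolute difference was 11.8 points, from lung, and the largest 17.4 points, from muscle. Ninj1 spleen and lung had nearly equal means and yet differed by stretch, with 55.6% in spleen and 43.5% in lung at the first stretch, and 45.6% in spleen and 66.8% in lung at 943 to 1232. In Rab32 spleen was above liver in each of the 6 deep stretches, from 43.6% in spleen and 9.03% in liver at the first to 9.97% in spleen and 3.56% in liver at 2198 to 2433.

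**Figure D5:**
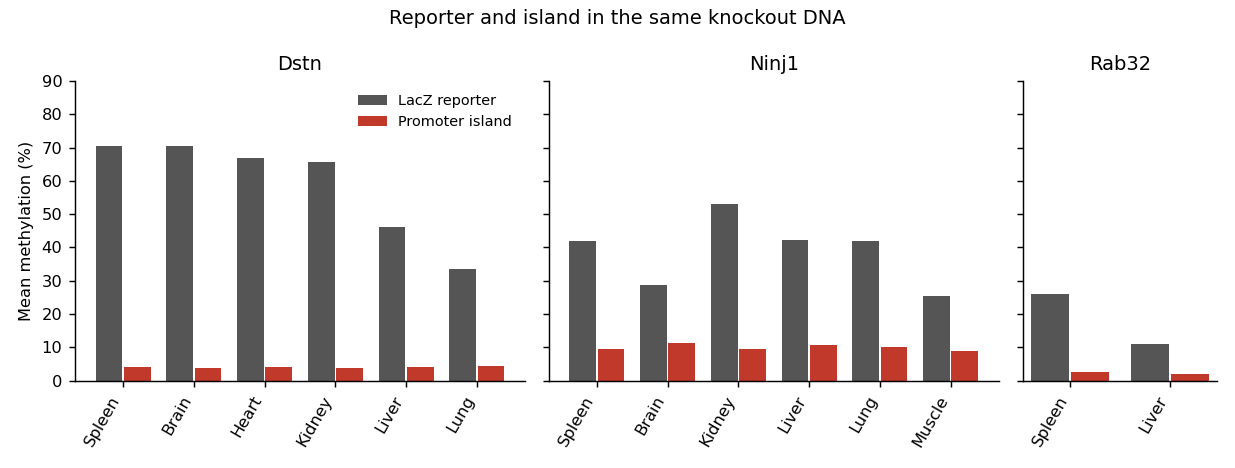
Mean methylation of the LacZ reporter (grey) and of the promoter island (red) in the same knockout DNA, by tissue with spleen first, for the 3 lines; each bar is 1 library. The spleen reporter stands at 70.4% in Dstn, 42.0% in Ninj1 and 25.9% in Rab32, and the islands stay at or under 11.2% throughout.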

How the data were processed

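Genomic DNA of flash-frozen tissue was bisulfite treated, and the island and LacZ amplicons were pooled, sequenced and aligned apart, per the labels' protocols and design text. Alignment used mm9, and the tools listed are Bismark and Bowtie2 with no version, per the submitters' processing notes. The deposited files give, per CpG, methylated and unmethylated read counts and a percent that equals their share, neither normalized. No removal of duplicate reads is stated in the sources used here, conversion at non-CpG cytosines was not analysed here, and PCR that favours one strand over the other can bias a level.

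Sites with at least 10 reads, and for islands within 2000 bp of the line's median position, were kept. Levels are unweighted means over sites. Line means were tested by exact sign flips, and sites by the quasi-likelihood test of edgeR 4.0.16 in R 4.3.3, with library, tissue, genotype and genotype-by-spleen terms and Benjamini-Hochberg adjustment within a line. The spread then came from other tissues, so p-values measure differences between tissues of unstated animals, and 1 spleen pair is assumed to vary like them. limma 3.58.1 on logit methylation (offset 0.5 counts) was an alternative, with coverage minimums, pooled reads, medians, site classes, and left-out lines or tissues. Of these, only the edgeR test of the departure of spleen and the edgeR test of the reporter were run on simulated data. The simulation gave a site the same expected level in all tissues, so it does not show how the tests behave under real differences between tissues. Neither limma nor the edgeR test between genotypes in spleen was checked in this way. Rab32, with 1 other tissue, had no site test. Named sites were the 3 largest differences in each direction and all elevated sites of an island, and the 3 highest and lowest of a reporter. Members, lists, tests and site classes were chosen with earlier results of these data known. The reporter stretches, the sites next to named ones and the naming of lowest deep sites were chosen after seeing the values. Python 3.11.15, numpy 2.4.6, pandas 2.3.3 and matplotlib 3.10.9 were used.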

Additional observations from a re-analysis of the deposited data

Results flagged for a closer look

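At 3 Ninj1 sites the knockout spleen stood apart from the knockouts of the other 5 tissues, with a gap to the nearest of over 0.625 of the range of the 6 values: 5.06% at 49283156, 5.28% at 49283373 and 5.17% at 49283379. These sites entered the check because their spleen difference had been called, so the chance rate of about 1 in 20 sets does not hold for them, and the last 2 share reads. Among 10 sets of island or reporter levels over 6 tissues, 1 stood out, the Dstn island in lung, where knockout minus wild type was 0.601 points, above the other 5 tissues, spleen included. By edgeR's test of the difference itself, knockout minus wild type in spleen differed from the mean over the other 5 tissues at 4 Ninj1 sites: by 0.917 points at 49282925, 4.53 at 49283156, 4.78 at 49283373 and 4.398 at 49283379. Coverage at the last 2 sites was 23631 and 23618 reads in knockout spleen and 70374 and 70316 in wild-type spleen, and the part of that gap in coverage was not tested.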

How the results depend on the processing

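Of 117 recomputed values under other settings, 86 held, 21 moved and 10 reversed, where holding means the same sign for a mean over lines, a shift within the counting margin for a level and at most 1.5-fold for a count. Those that held include the call counts of the Dstn island and of the Dstn and Ninj1 reporters, which were 0 under every setting. Adding a minimum difference to 0 calls can only give 0, so the share that held is no measure of stability. The mean island difference over lines became -0.304 points with pooled reads, 0.739 without a coverage minimum, 0.309 without elevated sites and 0.200 by medians, and ran from -0.0157 to 0.268 points when 1 line was left out. The same difference minus the other tissues became 0.835 points without a coverage minimum, 0.0819 with at least 100 reads, 0.0929 by medians, 0.0728 at sites covered in every island library and 0.0229 without elevated sites, and was -0.118 against liver alone. Neither is a stable direction. Without elevated sites the difference was -0.0169 points in Dstn, 0.601 in Ninj1 and 0.342 in Rab32, and Ninj1 had -0.909 points with pooled reads and 2.22 without a minimum. The cause was not tested. The reporter level of Dstn was 65.8%, 73.0%, 80.1% and 71.6% without a minimum, with at least 100 reads, with pooled reads and without near-constant sites (a setting chosen after seeing the data), that of Ninj1 40.0%, 42.9%, 40.6% and 40.5%, and that of Rab32 25.05%, 26.8%, 26.0% and 23.9%. The order of lines was the same in each. At 10 points the count of island sites was 1 in Dstn and 2 in Rab32. With a difference of at least 5 points added, 1 Ninj1 site was called between genotypes and 0 by the departure of spleen. Leaving out 1 other tissue gave 5 to 8 and 2 to 3 calls, the 8 without muscle. The mean reporter differences over lines, from other tissues and between start and end, kept their sign under the settings run, but against liver alone Ninj1 had -0.144 points. Depth limits bases 1423 to 1633 of the reporter. Pairing was by line and tissue throughout, since the labels give no replicate numbers.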
